A study of Mus musculus with 8 samples.

Results

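The HtrA family was examined through the rows of the count table for its 4 mouse genes, Htra1, Htra2, Htra3 and Htra4, of 27179 genes listed. The members were found by Entrez Gene identifier and symbol, and all 4 passed the filter on low counts that left 15583 genes for testing. RNA was sequenced in bulk from lung cells of C57BL/6 mice (C57BL/6J in the study's methods) with an Eml4-Alk rearrangement, labelled a translocation, a model of lung adenocarcinoma in which an adenovirus delivering Cas9 and guide RNAs to the airways fuses the Eml4 and Alk genes. The mice were between 18 and 22 weeks old, 11 to 12 weeks after tumor induction, and every mouse had received 4.5 nmol of QZ1-(PEG2K), a quenched peptide probe that becomes fluorescent and cell-associated after protease cleavage, by tail vein 2 hours before the lungs were taken. Live cells without the leukocyte proteins CD45 and CD11b were sorted by probe signal. The populations were cells with high signal (QZ1-hi, 4 libraries, labelled QZ+) and cells with low signal (QZ1-lo, 4 libraries, labelled QZ-), with at least 100000 cells collected for each. Both populations came from tumor-bearing lungs given the probe, so that no healthy or probe-free cells enter the comparison, and no measure of sort purity was available for these libraries. The p-values measure the spread among these 8 libraries, which are described as biological replicates without saying which mouse gave which pair.

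HtrA proteins are serine proteases that share a trypsin-like catalytic domain followed by a PDZ domain, a peptide-binding module, and they assemble into trimers or larger forms. Htra1, Htra3 and Htra4 encode secreted enzymes whose N-terminal part resembles insulin-like growth factor binding proteins (IGFBPs) and carries a Kazal-type inhibitor motif. They are known for cleaving extracellular matrix proteins and for restraining signaling by transforming growth factor β (TGF-β) and bone morphogenetic proteins (BMPs). Htra2, also called Omi, encodes a mitochondrial enzyme that maintains protein quality in the intermembrane space and, when released into the cytosol, binds and cleaves inhibitor of apoptosis proteins (IAPs).

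The coding sequence around the catalytic serine is printed for each gene to show how closely the family members resemble one another where they cut, and because resemblance bears on whether reads can be assigned to one member. Each window is 63 bases, read 5′ to 3′ on the coding strand from GRCm38 (mm10) with the GENCODE annotation, and the 21 bases in capitals encode the stretch around the serine.
Htra1: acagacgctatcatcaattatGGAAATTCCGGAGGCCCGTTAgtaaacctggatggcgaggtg
Htra2: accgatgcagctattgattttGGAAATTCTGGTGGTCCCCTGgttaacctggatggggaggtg
Htra3: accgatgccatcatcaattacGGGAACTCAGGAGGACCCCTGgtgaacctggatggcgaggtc
Htra4: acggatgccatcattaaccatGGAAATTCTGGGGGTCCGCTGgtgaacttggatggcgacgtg
The serine lies at codon 328 of 480 in Htra1, codon 306 of 458 in Htra2, codon 311 of 459 in Htra3 and codon 332 of 483 in Htra4. In all 4 genes the window crosses the same exon pattern, with 18 bases in one exon, a complete exon of 33 bases and 12 bases in the next. Between pairs of members, 46 to 50 of the 63 bases were identical, with Htra1 and Htra3 the most alike over the whole window. Within the 21 capital bases Htra2 and Htra4 were the most alike, with 19 identical, and Htra1 and Htra3 the least, with 14. Over the aligned coding sequences, identity ran from 61.7% for Htra1 and Htra2 to 67.2% for Htra1 and Htra4. No stretch of 50 bases in the exons of any member recurred in another annotated gene on the same strand. The 4 rows therefore do not share reads through identical sequence of that length. Stretches with mismatches were not searched.

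The genes lie on separate chromosomes. Htra1 spans chr7:130936111-130985660 on the plus strand with 2879 exonic bases, and lies inside the much larger span of Fgfr2 on the opposite strand with no exon in common. Htra3 spans chr5:35652023-35679782 on the minus strand with 4439 exonic bases and overlaps no other gene. Htra2 lies at chr6:83051266-83055273 on the minus strand with 2946 exonic bases, of which 535 are shared with exons of Loxl3 and 753 with exons of Aup1, both transcribed the other way. Htra4 lies at chr8:25024929-25038962 on the minus strand with 2404 exonic bases, of which 792 are shared with the opposite-strand non-coding gene Gm16933, whose counts were not analysed here. The library kit keeps strand, but the strand setting of the counting was not given in the sources used here, so the Htra2 and Htra4 counts may hold reads of these neighbours.

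The libraries held 18380918 to 26847938 counts each, and 3 counts, used here as the floor of detection, corresponded to between 0.0894 and 0.179 CPM (counts scaled to a common library size). Every HtrA gene was above this floor in every library, with a lowest count of 26. Mitochondrial and ribosomal RNA genes took 43.7% to 65.6% of counts in QZ1-hi and 34.0% to 53.2% in QZ1-lo. Libraries of the same population correlated at 0.949 to 0.974 across genes on the log2 scale, and libraries of different populations at 0.860 to 0.920. Lung markers were abundant, with summed CPM of 6 alveolar type 2 genes between 4209 and 10171 in the 8 libraries. Ptprc, which encodes CD45, was nonetheless present at 131 ± 64.2 CPM in QZ1-hi and 125 ± 30.0 CPM in QZ1-lo (SD, n = 4 each) in cells gated as negative for that protein, and none of 8 leukocyte markers passed the test between populations by edgeR, DESeq2 or limma, nor at an unadjusted p under 0.05 by edgeR.

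To find how the transcripts of these proteases differ between cells with high and low probe signal, each gene was compared in a fit over all 15583 genes (edgeR quasi-likelihood test on counts, TMM scaling, Benjamini-Hochberg adjustment over all genes, threshold 0.05). Htra3 was 16.6-fold higher in QZ1-hi, Htra4 was 2.08-fold lower, and Htra1 and Htra2 did not pass the threshold. Thus 1 of the 4 members rose and 1 fell, beside 18.1% of all tested genes called, 9.88% higher and 8.21% lower. CPM did not overlap between populations for 2 of the 4, against 22.6% of all tested genes. CPM values below are scaled by TMM, a correction for differences in RNA composition between libraries.

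**Figure D1:**
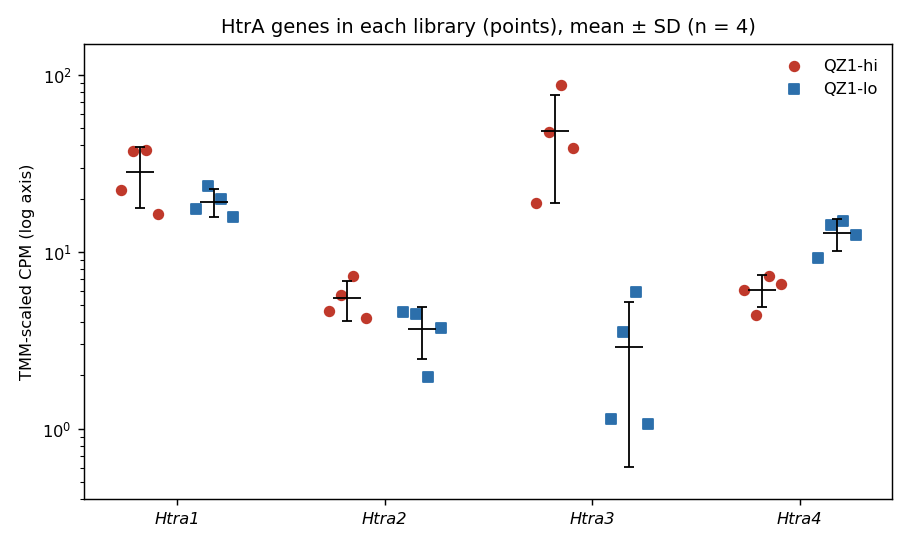
TMM-scaled CPM on a log axis for each HtrA gene, with QZ1-hi libraries as circles, QZ1-lo libraries as squares, and bars for mean ± SD (n = 4). Htra3 lies between 18.9 and 88.3 CPM in QZ1-hi and between 1.06 and 5.90 CPM in QZ1-lo, Htra4 lies higher in QZ1-lo, and the populations overlap for Htra1 and Htra2.

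Htra3, a secreted matrix protease, was measured at 18.9, 47.4, 88.3 and 38.4 CPM in QZ1-hi replicates 1 to 4, from 445, 960, 1527 and 645 counts. In QZ1-lo replicates 1 to 4 it was measured at 1.13, 3.54, 5.90 and 1.06 CPM, from 38, 87, 163 and 26 counts. The populations did not overlap, and the lowest QZ1-hi library was replicate 1 while the highest QZ1-lo library was replicate 3. The means were 48.2 ± 29.2 CPM and 2.91 ± 2.30 CPM (SD, n = 4 each), so that the spread within each population was wide relative to its mean. The log2 fold change was 4.05 ± 0.60 (SE), with an adjusted p of 0.00104 (edgeR). The 95% interval of the fold change ran from 6.61 to 41.6. Htra3 ranked 51 of 15583 tested genes by log2 fold change toward QZ1-hi, with 99.7% of genes below it. Genes whose CPM did not overlap between populations in this direction made up 11.9% of all genes tested. Without QZ1-lo replicate 3 the log2 fold change was 4.67. The cells were sequenced in bulk, so that more cells expressing a gene and more RNA of it per cell cannot be told apart, here or for any gene described.

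Htra4, the secreted member with the shortest exonic length, went the other way. It was measured at 6.10, 4.40, 7.34 and 6.61 CPM in QZ1-hi replicates 1 to 4, from 144, 89, 127 and 111 counts. In QZ1-lo replicates 1 to 4 it was measured at 9.18, 14.3, 14.9 and 12.4 CPM, from 308, 351, 413 and 304 counts. The populations did not overlap, with QZ1-hi replicate 3 and QZ1-lo replicate 1 closest to each other. The means were 6.11 ± 1.25 CPM in QZ1-hi and 12.7 ± 2.58 CPM in QZ1-lo (SD, n = 4 each). The log2 fold change was -1.06 ± 0.23 (SE), with an adjusted p of 0.00808 (edgeR), and the level was 2.08-fold lower in QZ1-hi with a 95% interval from 1.47 to 2.95. Non-overlapping genes in this direction made up 10.7% of all genes tested.

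Htra1, the secreted member known for its matrix and TGF-β family substrates, was measured at 22.3, 37.4, 37.5 and 16.4 CPM in QZ1-hi and at 17.5, 23.6, 20.0 and 15.7 CPM in QZ1-lo, replicates 1 to 4. QZ1-hi replicates 2 and 3 were above every QZ1-lo library, whereas replicates 1 and 4 lay within the QZ1-lo range. The means were 28.4 ± 10.7 CPM and 19.2 ± 3.44 CPM (SD, n = 4 each). The log2 fold change of 0.56 ± 0.26 (SE) did not pass the threshold, with an adjusted p of 0.174 (edgeR). The interval of the fold change, 0.999 to 2.19, includes both no difference and a 2.19-fold higher level in QZ1-hi. Without QZ1-hi replicate 4 the log2 fold change was 0.79 with an adjusted p of 0.0321 (edgeR), so the Htra1 call turned on that library.

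Htra2, the mitochondrial member, had the lowest total count of the family, 422 over QZ1-hi and 407 over QZ1-lo. It was measured at 4.62, 5.68, 7.34 and 4.23 CPM in QZ1-hi and at 4.56, 4.43, 1.95 and 3.72 CPM in QZ1-lo, replicates 1 to 4. QZ1-lo replicate 3 was lowest, with 54 counts, and the populations overlapped between 4.23 and 4.56 CPM. The means were 5.47 ± 1.39 CPM and 3.67 ± 1.20 CPM (SD, n = 4 each). The log2 fold change of 0.57 ± 0.33 (SE) did not pass the threshold, with an adjusted p of 0.288 (edgeR), and the interval of the fold change ran from 0.903 to 2.45. Of the genes sharing exonic bases with Htra2, Loxl3, a lysyl oxidase-like enzyme that cross-links collagen and elastin, was higher in QZ1-hi (log2 fold change 2.47, adjusted p = 0.00365 by edgeR) and Aup1, a lipid droplet and ER-associated degradation protein, had a log2 fold change of -0.05. Their part in the Htra2 counts was not tested.

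**Figure D2:**
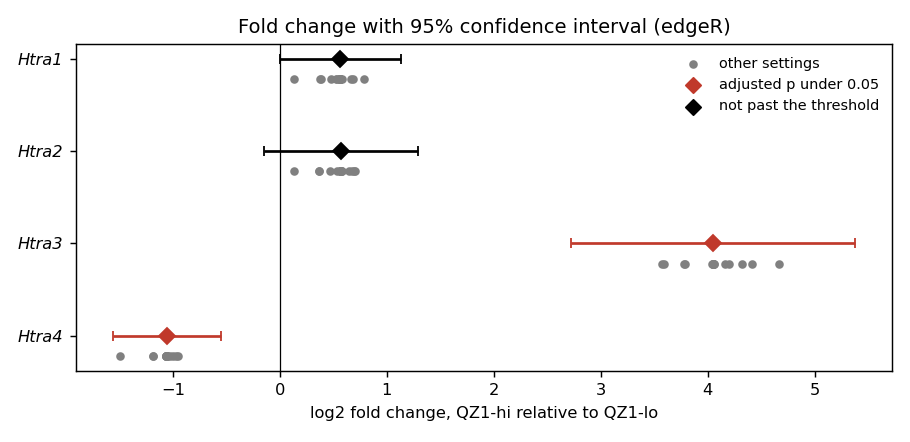
Log2 fold change of each HtrA gene, QZ1-hi relative to QZ1-lo, as diamonds with 95% confidence intervals (edgeR), and as grey points under 16 other settings, among them leaving out each library. Htra3 stays to the right of 0 and Htra4 to the left under every setting shown, and the intervals of Htra1 and Htra2 include 0.

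The members therefore differed in how they separated the populations, which was tested within libraries by the ratio of Htra3 to Htra1, a measure that library scaling does not touch. On the log2 scale, with 2 added to each count, the ratio was -0.24, 0.34, 1.23 and 1.22 in QZ1-hi replicates 1 to 4. It was -3.88, -2.71, -1.75 and -3.79 in QZ1-lo replicates 1 to 4. The populations did not overlap, and the difference of means was 3.67 (p = 0.0286 by a two-sided exact permutation test, for which no smaller value is possible with 4 libraries against 4). The difference in the log2 ratio of Htra3 to Htra4 was 5.21, also without overlap. By contrast, the log2 ratio of Htra1 to Htra2 differed by -0.12 and overlapped. The last pair of ratios is given without a test.

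Levels of different genes were set side by side only after division by exonic length, as TMM-scaled CPM per kilobase of exon. In QZ1-hi, Htra3 came first at 10.9 ± 6.59, followed by Htra1 at 9.87 ± 3.73, Htra4 at 2.54 ± 0.521 and Htra2 at 1.86 ± 0.472 (SD, n = 4). Htra3 and Htra1 overlapped across libraries, as did Htra4 and Htra2, whereas every Htra1 value was above every Htra4 value. In QZ1-lo, Htra1 came first at 6.67 ± 1.19, followed by Htra4 at 5.29 ± 1.07, Htra2 at 1.25 ± 0.408 and Htra3 at 0.655 ± 0.518 (SD, n = 4). Htra1 and Htra4 overlapped there, and so did Htra2 and Htra3, with a gap between the pairs. By mean level, Htra3 was thus first in QZ1-hi, with overlap, and last in QZ1-lo, also with overlap. Within QZ1-hi replicates 1 and 2, Htra1 was above Htra3 (7.74 against 4.25 and 13.0 against 10.7). In QZ1-lo replicate 3, Htra3 was above Htra2 (1.33 against 0.663).

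The make-up of the family shifted accordingly. Htra3 made up 26.4%, 38.9%, 51.7% and 46.7% of the summed CPM per kilobase in QZ1-hi replicates 1 to 4, and 2.18%, 4.85%, 8.77% and 1.97% in QZ1-lo. Htra4 made up 15.8%, 6.66%, 7.94% and 14.8% in QZ1-hi and 32.7%, 36.1%, 41.0% and 42.6% in QZ1-lo. Neither share overlapped between populations, while the Htra1 share ran from 30.7% to 48.1% in QZ1-hi and from 45.0% to 51.9% in QZ1-lo, and the Htra2 share from 6.48% to 9.74% and from 4.38% to 13.2%, with overlap for both. The summed level of the family was 25.1 ± 10.1 CPM per kilobase in QZ1-hi and 13.9 ± 2.31 in QZ1-lo (SD, n = 4 each), and overlapped. Shares of one total move together by construction and were not tested.

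**Figure D3:**
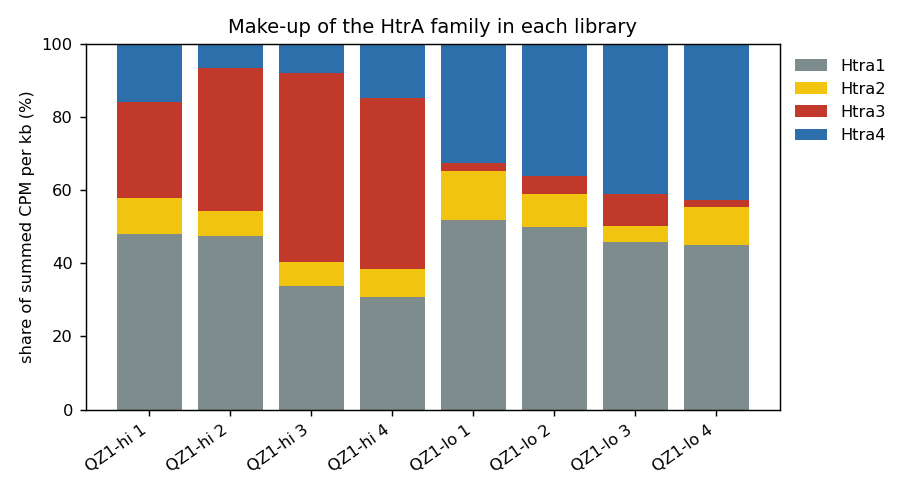
Share of each HtrA gene in the summed CPM per kilobase of exon, in percent, as stacked bars for each of the 8 libraries. The Htra3 segment is 26.4% to 51.7% in QZ1-hi and 1.97% to 8.77% in QZ1-lo, and the Htra4 segment is larger in every QZ1-lo library.

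Secreted HtrA proteases are known to act on matrix and matrix-associated proteins, and 16 genes for reported substrates were examined. Of the 13 that could be tested, 8 rose in QZ1-hi, 1 fell and 4 did not pass the threshold, with a median log2 fold change of 2.38 beside 0.02 over all genes. The median was 1.36 without QZ1-hi replicate 2, 1.38 over the 14 genes that DESeq2 tested and 1.69 with no filter on low counts. Those that rose included Dcn (log2 fold change 3.16) and Bgn (2.38), which encode the small proteoglycans decorin and biglycan, Col3a1 (3.52), a fibrillar collagen chain, Eln (2.98), the precursor of elastic fibers, and Fn1 (1.06), fibronectin. Efemp1 (2.63), an elastic fiber-associated fibulin, Ltbp1 (2.90), which tethers latent TGF-β to the matrix, and Igfbp5 (1.70), which binds insulin-like growth factors, completed the group. Clu, the secreted chaperone clusterin, was the gene that fell (log2 fold change -1.17), from 2119 ± 399 CPM in QZ1-lo to 939 ± 294 CPM in QZ1-hi (SD, n = 4 each). Fmod (2.53), Comp (1.06), Fbln5 (0.67) and Thbs1 (-0.44) did not pass, and Acan, Vtn and Col2a1 were too low to test.

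For the TGF-β and BMP pathways, which the secreted members are known to restrain, 4 of 11 tested genes of a list of 12 rose in QZ1-hi and none fell, with a median log2 fold change of 0.29. Those that rose were Acvrl1 (2.82), the type I receptor ALK1 of endothelial cells, Tgfbr3 (2.53), the co-receptor betaglycan, Bmpr2 (0.94), the type II BMP receptor, and Tgfbr2 (0.43), the type II TGF-β receptor. The ligands did not pass the threshold, with log2 fold changes of 0.32 for Tgfb1, 0.10 for Tgfb2, 0.29 for Tgfb3, 0.25 for Bmp2 and -0.36 for Bmp4, and neither did the type I receptors Tgfbr1 (-0.07) and Bmpr1a (-0.21). Gdf5 was too low to test. With scaling by library size alone, 2 genes of the list rose.

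Among 17 other genes with an IGFBP-type module, the domain found at the N-terminus of the secreted HtrA proteins, 7 of 14 tested rose and 1 fell, with a median log2 fold change of 1.33, which was 0.48 over the 11 genes with at least 10 counts in every library. Igfbp3 (3.38), Igfbp4 (3.38), Igfbp6 (2.70), Igfbp5 (1.70, also counted among the substrates) and Igfbp7 (1.30) rose, as did Ccn5 (3.44) and Ccn3 (1.41), matricellular proteins of the CCN family. Ccn1, another CCN family protein, fell by 0.58 on the log2 scale (adjusted p = 0.0457 by edgeR), and no gene of the list was called lower without QZ1-hi replicate 1, 3 or 4 or QZ1-lo replicate 1, 2 or 3. Igfbp2 (-0.31) and Ccn2 (-0.04) did not pass.

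The genes around the mitochondrial member showed few calls. Of 13 tested genes for IAPs and the intrinsic death pathway, none rose and 1 fell, with a median log2 fold change of 0.01. Xiap, a caspase inhibitor and known target of released Htra2, had a log2 fold change of 0.18, Birc2 of 0.01, Birc3 of -0.39, Birc5 of 0.11 and Diablo, another mitochondrial IAP-binding protein, of 0.06. The gene that fell was Endog, a mitochondrial nuclease (log2 fold change -1.37, adjusted p = 0.0306 by edgeR), although its populations overlapped, and no gene of the list was called in 5 of the 8 fits that left out a library, namely without QZ1-hi replicate 1, 3 or 4 or QZ1-lo replicate 1 or 2. Of 16 tested genes for mitochondrial proteolysis and quality control, none was called in either direction, with log2 fold changes from -0.33 for Clpx, a matrix unfoldase, to 0.32 for Clpp, its partner peptidase. At an unadjusted p under 0.05, 1 of these 16 would have been counted, and DESeq2 and limma with adjustment also called none.

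**Figure D4:**
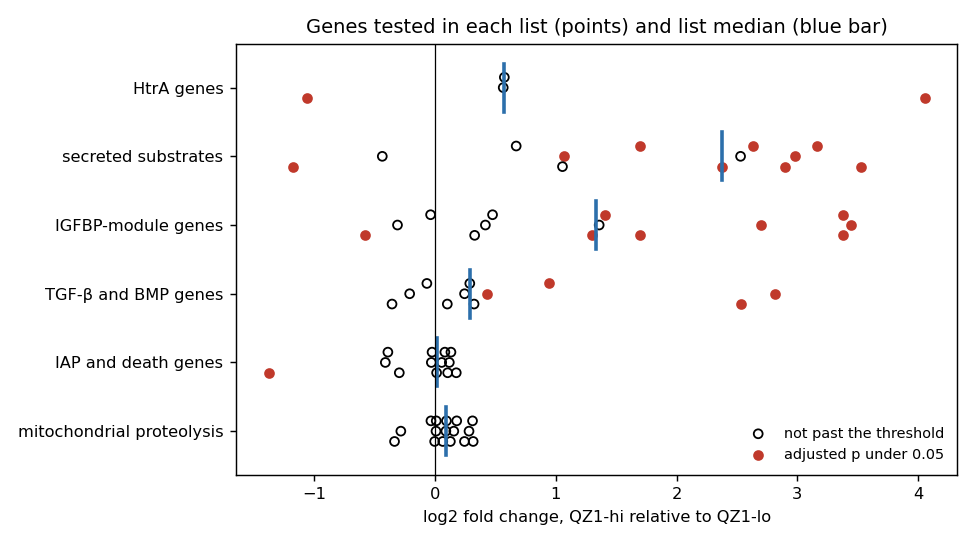
Log2 fold change, QZ1-hi relative to QZ1-lo, of each gene tested in the HtrA family and in 5 lists of related genes, filled where the adjusted p is under 0.05 (edgeR), with a blue bar at each list median. The medians are 2.38 for secreted substrates, 1.33 for genes with an IGFBP-type module, 0.29 for TGF-β and BMP genes, 0.01 for IAP and death genes and 0.09 for mitochondrial proteolysis.

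Markers of several cell types moved with the populations and are given here beside Htra3 and Htra4. All 10 endothelial markers rose in QZ1-hi, with summed levels of 1006 to 2369 CPM against 74.8 to 300.3 CPM, as did 8 of 10 fibroblast markers (941 to 2012 against 67.6 to 237 CPM), 4 of 9 pericyte markers (106 to 215 against 10.6 to 36.4 CPM), 5 of 5 mesothelial markers (41.9 to 290.2 against 6.06 to 39.2 CPM) and 2 of 5 smooth muscle markers (25.0 to 39.6 against 10.3 to 21.6 CPM). Another smooth muscle marker, Cnn1, the gene of the actin-binding protein calponin, fell (adjusted p = 0.0118 by edgeR). It had 0.362 to 0.773 CPM in QZ1-lo and a single count in all of QZ1-hi. Cnn1 did not pass the filter, and so was not tested, when mitochondrial and ribosomal RNA genes were removed. The same held when at least 10 counts were required in every library. Of the fibroblast markers, Tcf21 (log2 fold change 3.05) and Npnt (-0.42) did not pass the threshold. With scaling by library size alone, 9 fibroblast markers rose and 1 fell. The mesothelial count was 0 without QZ1-hi replicate 2, 1 with robust shrinkage in edgeR, and 2 without QZ1-lo replicate 1, 3 or 4. The pericyte count was 1 of 4 tested when at least 10 counts were required in every library. It was 5 by DESeq2 or without QZ1-lo replicate 4. The smooth muscle count was 1 without QZ1-hi replicate 2 or 3 or QZ1-lo replicate 1, and 3 without QZ1-lo replicate 3. All 8 epithelial markers fell, with summed levels of 612 to 932 CPM in QZ1-hi against 1674 to 2286 CPM in QZ1-lo, as did 6 of 6 ciliated cell markers (155 to 283 against 406 to 674 CPM), 4 of 4 club cell markers (329 to 994 against 1460 to 4059 CPM) and 5 of 6 alveolar type 1 markers. The part of these differences in the Htra3 and Htra4 results was not tested.

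Htra3 was compared with marker lists within each library. Its log2 CPM minus the mean log2 CPM of the 10 fibroblast markers lay between -1.11 and -0.22 in QZ1-hi and between -1.77 and -0.80 in QZ1-lo, which overlapped. The difference was 0.72, taken from means of log2(CPM + 0.5). The log2 fold change of Htra3 itself, 4.05, is the edgeR estimate and so is not on quite the same scale. Measured against endothelial markers the difference was 0.46 and also overlapped. Against mesothelial markers it was 1.37 and overlapped. Against pericyte markers it was 1.89 and against smooth muscle markers 3.10, without overlap in either. Both lists hold genes with few counts, such as Rgs5 (70 in QZ1-hi, 22 in QZ1-lo) and Actg2 (42 and 20). The 0.5 added to CPM shrinks the differences of such genes. Single pericyte markers had log2 fold changes from 0.36 for Notch3 to 4.03 for Abcc9 (edgeR). Htra4 minus the mean of 8 epithelial markers lay between -4.05 and -2.97 in QZ1-hi and between -4.22 and -3.51 in QZ1-lo, with a difference of 0.32 and overlap. Its difference was 0.85 against ciliated, 1.10 against club cell and -0.39 against alveolar type 1 markers, with overlap in each. Against alveolar type 2 markers it was -1.36 and did not overlap. These differences are descriptions of 8 libraries that fall into 2 clusters, with no test.

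**Figure D5:**
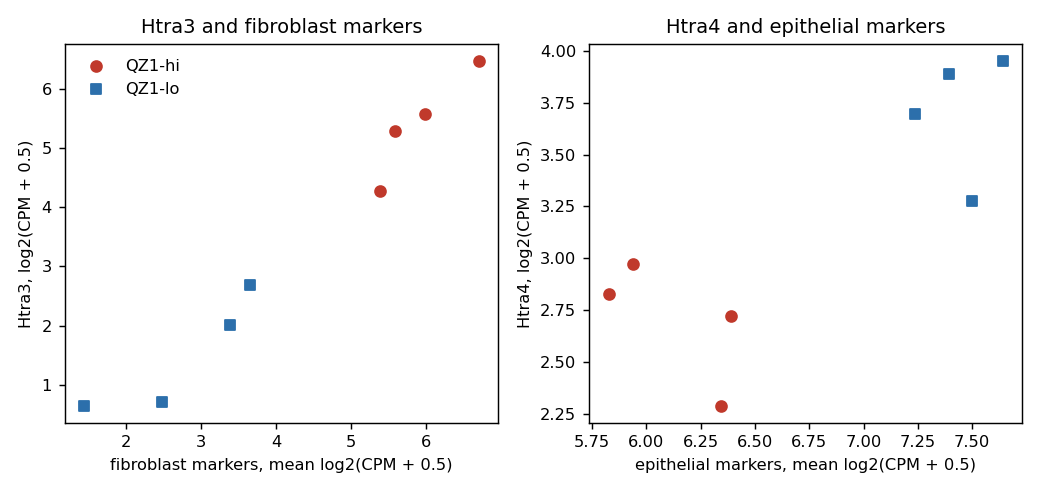
Left, log2(CPM + 0.5) of Htra3 against the mean log2(CPM + 0.5) of 10 fibroblast markers, and right, of Htra4 against that of 8 epithelial markers, with QZ1-hi libraries as circles and QZ1-lo libraries as squares. The populations separate on both axes in both panels, and Htra3 minus the fibroblast mean overlaps between them, from -1.11 to -0.22 in QZ1-hi and from -1.77 to -0.80 in QZ1-lo.

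Genes with the pattern most like each member were found by Pearson correlation of log2 CPM with all 15582 other tested genes over the 8 libraries, once on the values and once on deviations from the population means, which leave out the difference between populations. These values describe libraries that share preparation and depth, and the first measure carries the population difference. The genes most like Htra3 were Pdzd2 (r = 0.996), a PDZ domain protein, Lama2 (0.995), a laminin chain of basement membranes, and Tgfbr3 (0.995). On deviations they were Pdzd2 (0.978), Tcf21 (0.978) and Lama2 (0.974), so that Pdzd2 and Lama2 were found by both measures. Tcf21 is a transcription factor of lung fibroblasts and itself on the fibroblast list. It did not pass the threshold between populations (adjusted p = 0.0907 by edgeR). Tcf21 had 244 counts over QZ1-hi and 42 over QZ1-lo, with none in QZ1-lo replicates 1 and 4. Those most like Htra4 were Ttll10 (0.980), which encodes a tubulin-modifying enzyme, Caps2 (0.975) and Atp7b (0.970), a copper transporter, whereas on deviations Parpbp, Qrsl1 and Tyw3 came first, sharing no gene with the first measure. For Htra1 the leading gene was Igf2 (0.963), a growth factor, and for Htra2 it was the histone gene H2bu2 (0.977). On deviations the leading genes were Apob (0.975) for Htra1 and Scpep1 (0.987) for Htra2, members that were not called. Each leading value came from a search over 15582 genes in 8 libraries. Both measures use the same libraries, so a gene found by both has no independent support. Between members, Htra3 and Htra4 correlated at -0.71 on the values and at 0.54 on deviations. The negative sign was thus not seen once the population difference was left out. Neither correlation was tested, and none was computed within a single population.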

How the data were processed

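RNA of sorted lung cells was prepared with a stranded total RNA kit and sequenced in 8 libraries. The deposited values are unnormalized counts, which the authors obtained with Rsubread on the mm10 build before testing populations with DESeq2. Aligner, annotation and strand setting were not given in the sources used here. Entrez identifiers were matched to symbols with a RefSeq table, which named 25275 of 27179 rows. Lengths, overlaps and sequences came from GENCODE M21 on the same build, aligned with Biopython 1.88.

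Counts were tested in R 4.3.3 with edgeR 4.0.16 (TMM, filterByExpr with a minimum count of 10, quasi-likelihood F test, Benjamini-Hochberg, threshold 0.05) in one unpaired fit. The ratio was tested by an exact permutation test over 70 assignments. Alternatives used DESeq2 1.42.0, limma 3.58.1, other scalings and filters, and leaving out each library. The scripts were tested on simulated data. The named genes were the 4 members, the lists, genes overlapping a member, and the 3 most correlated genes by each measure. Members and lists were chosen with earlier results of these data known. Sequencing depth was 18380918 to 26847938 counts per library, and floors cover counting error only.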

Additional observations from a re-analysis of the deposited data

How the results depend on the processing

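Across 16 alternatives (8 that left out a library, 3 scalings, 2 filters and 3 tests), the calls of Htra2, Htra3 and Htra4 kept their direction and their side of the threshold. Leaving out each library gave log2 fold changes of 3.57 to 4.67 for Htra3, -1.19 to -0.95 for Htra4, 0.37 to 0.70 for Htra2 and 0.38 to 0.79 for Htra1, and Htra1 passed the threshold only without QZ1-hi replicate 4, which raised the number of members called from 2 to 3. The adjusted p over all alternatives ran from 3.93e-07 to 0.00746 for Htra3, from 0.000363 to 0.0273 for Htra4, from 0.0321 to 0.770 for Htra1 and from 0.243 to 0.821 for Htra2 (edgeR, DESeq2 or limma). With library size as the only scaling, the median over all genes went from 0.02 to -0.44 (log2), with 0.13 for Htra1, 0.14 for Htra2, 3.59 for Htra3 and -1.49 for Htra4. Under that scaling 882 genes were called higher and 2509 lower, against 1540 and 1280. Without single libraries 2187 to 2543 genes were called, 1136 to 1506 higher and 938 to 1201 lower. The difference in the log2 ratio of Htra3 to Htra1 was 3.71 with 0.5 added to the counts and 3.39 to 4.10 without single libraries, with p = 0.0286 each time by the two-sided exact permutation test, the smallest it can give there too. No paired analysis was possible because no source used here says which libraries of the populations share a mouse. Library numbers, 4591 to 4598, alternate between QZ1-hi and QZ1-lo. Taken in that order, Htra1 and Htra2 were each higher in every QZ1-hi library than in the QZ1-lo library that follows it. The closest values were 16.4 against 15.7 CPM for Htra1 and 4.62 against 4.56 CPM for Htra2. Whether this order follows the mice is unknown, and it was not used in any test. Depth limits Htra2, with 54 to 153 counts per library, and Htra3 in QZ1-lo, with 26 to 163.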

Other observations

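Of 6 alveolar type 2 markers, 1 rose in QZ1-hi, Sftpc, the surfactant protein C gene, and it was not called without QZ1-lo replicate 1, 2 or 4 or with scaling by library size alone. Of 6 alveolar type 1 markers, Pdpn, the podoplanin gene, rose while the other 5 fell, and Pdpn was not called without QZ1-hi replicate 2 or with scaling by library size alone. Of 6 genes of red cells and platelets, 2 platelet genes rose, Ppbp and Pf4, and 1 gene was called higher without QZ1-hi replicate 1 or 3 or QZ1-lo replicate 2. No HtrA gene had a library standing apart from the others of its population by Dixon's test, which 26 groups of 4 values were put through with a largest ratio of gap to range of 0.679.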
